A study of Mus musculus with 10 samples.

Results

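The genes described here are 8 members of the mouse Serpina3 cluster on chromosome 12 (Serpina3c, Serpina3f, Serpina3g, Serpina3h, Serpina3i, Serpina3k, Serpina3m and Serpina3n), taken by gene symbol from the 53342 genes of the deposited table, which holds 14 Serpina3 genes in all. The set was chosen by measured values, namely a level of Serpina3h far higher in SF-3-030+HDM lungs than in the other groups, so every value that sets SF-3-030+HDM against another group is given as a description, with no test. The study sequenced RNA of whole lungs, 10 libraries in all. SF-3-030+HDM lungs (n = 3) came from mice that received house dust mite allergen (HDM) intranasally on 5 days a week for 3 weeks and, 30 min ahead of it, an intranasal dose of 10 mg/kg of the compound SF-3-030. HDM lungs (n = 3) came from mice on the same course of allergen, and their label also names the solvent DMSO. PBS lungs (n = 4) are the controls, given phosphate-buffered saline, and no label names DMSO for them. All mice are labelled BALB/c, female and 12 weeks old, and none had the compound without allergen. By the title of the series, SF-3-030 targets ERK1/2, kinases of a growth and stress signalling pathway, in a function-selective way. No label says that replicates are separate animals, so p-values measure the spread between these samples.

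Serpins are protease inhibitors that act as bait. A protease cuts the exposed reactive centre loop of the serpin, the serpin changes shape, and the protease stays trapped in a dead complex, so the letters of the loop set which protease is caught. Humans have a single SERPINA3 gene, whose product alpha-1-antichymotrypsin is an acute-phase plasma protein made mainly in liver and an inhibitor of neutrophil cathepsin G. In mice the gene has been copied into a cluster whose members differ most in that loop. Serpina3n is the closest mouse counterpart in function and inhibits granzyme B, Serpina3g (also called Spi2A) is an intracellular inhibitor of lysosomal cathepsins induced in activated immune cells, Serpina3k binds tissue kallikrein, and Serpina3c is expressed in adipose tissue. Roles of Serpina3f, Serpina3i and Serpina3m are less settled.

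On GRCm38 the 8 genes lie within 268 kb, at chr12:104146382-104414329, with 5 other genes between them, of which 4 are further Serpina3 genes (Serpina3d-ps, Serpina3e-ps, Serpina3j and Serpina3l-ps). Serpina3c stands at one end on the minus strand (chr12:104146382-104153870). The other members are on the plus strand, in the order Serpina3f (chr12:104214544-104221129), Serpina3g (chr12:104236245-104241939), Serpina3h (chr12:104247905-104253669), Serpina3i (chr12:104263122-104269372), Serpina3k (chr12:104338486-104346144), Serpina3m (chr12:104338486-104394257) and Serpina3n (chr12:104406729-104414329). GENCODE M21 annotates Serpina3h (ENSMUSG00000041449) as a transcribed unprocessed pseudogene and the other 7 members as protein coding. One annotated transcript of Serpina3m starts at the Serpina3k start site, and these genes share 60 exon bases, 2.92% of those of Serpina3k and 3.49% of those of Serpina3m.

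Aligned over the bases that both genes of a pair hold, coding parts (the whole transcript for the pseudogene) were from 80.2% identical for Serpina3g and Serpina3k to 93.7% identical for Serpina3h and Serpina3i. The next closest pairs were Serpina3f and Serpina3h at 91.9% and Serpina3k and Serpina3m at 91.7%. Along the 638 alignment columns in which all 8 genes have a base, the mean pairwise identity of 60-base windows had a median of 84.6% and a highest value of 96.3%, and it dropped to 63.0% in the most variable window. That window lies in the last annotated exon of every member, just before and into the conserved stretch that follows the loop in serpins, so it covers the reactive centre loop. Its letters are shown because they are where these inhibitors differ most among the columns scanned. The coding part of Serpina3g has only 744 bases, and columns without a Serpina3g base were not scanned. Capitals mark a base that differs from the commonest one of the 8 genes in that column, and sequences run 5′ to 3′ on the strand of the gene (GENCODE M21, GRCm38).
Serpina3c, chr12:104147301-104147361: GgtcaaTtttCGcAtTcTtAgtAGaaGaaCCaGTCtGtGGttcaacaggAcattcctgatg
Serpina3f, chr12:104220271-104220343: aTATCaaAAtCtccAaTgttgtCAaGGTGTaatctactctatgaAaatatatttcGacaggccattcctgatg
Serpina3g, chr12:104241098-104241167: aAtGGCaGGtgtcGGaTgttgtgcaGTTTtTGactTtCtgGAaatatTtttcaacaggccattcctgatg
Serpina3h, chr12:104253537-104253606: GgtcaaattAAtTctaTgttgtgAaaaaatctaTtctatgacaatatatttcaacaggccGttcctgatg
Serpina3i, chr12:104268506-104268575: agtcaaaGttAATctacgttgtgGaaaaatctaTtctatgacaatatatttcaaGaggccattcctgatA
Serpina3k, chr12:104345295-104345358: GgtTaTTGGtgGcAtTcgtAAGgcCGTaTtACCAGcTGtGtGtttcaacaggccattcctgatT
Serpina3m, chr12:104393795-104393864: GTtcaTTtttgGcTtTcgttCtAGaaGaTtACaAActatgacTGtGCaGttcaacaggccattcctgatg
Serpina3n, chr12:104413474-104413543: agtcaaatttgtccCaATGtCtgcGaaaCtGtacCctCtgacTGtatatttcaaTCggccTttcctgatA

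Serpina3h and Serpina3i remained the closest pair there, at 87.1% identity with 8 capitals each, and Serpina3f and Serpina3k were the least alike, at 46.9%. Serpina3k had the most capitals, 26. Such likeness also bears on the counts. Of the 50-base windows of the Serpina3h transcript, 23.9% are found unchanged in a transcript of another gene, most often Serpina3i, against 4.25% for Serpina3c and 6.90% for Serpina3n, and the other 5 members lie between 10.7% and 19.1%. At 100 bases the share is at most 6.09%, in Serpina3m. The deposited counts are estimates that can divide such reads between genes: no count of a member was whole in any library at a tolerance of 0.001, so the split between Serpina3h and Serpina3i, and between Serpina3k and Serpina3m, is uncertain.

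**Figure D1:**
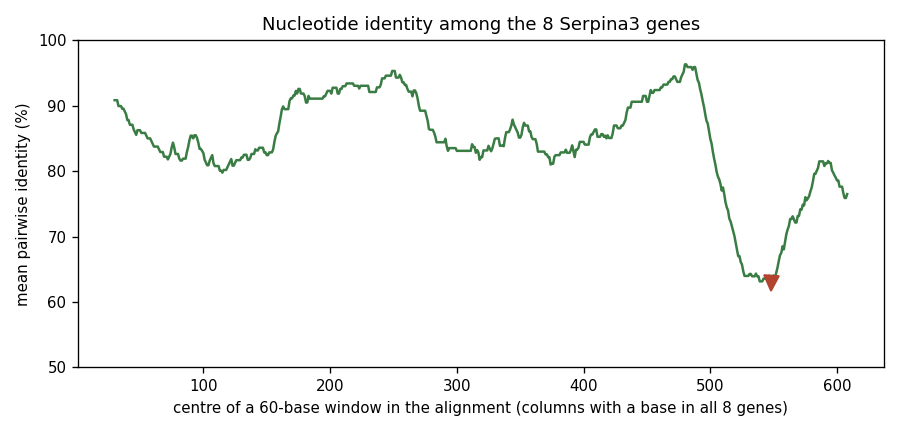
Mean pairwise nucleotide identity among the 8 Serpina3 genes (percent, vertical axis) in 60-base windows along the alignment columns in which all 8 have a base (horizontal axis, window centre). The triangle marks the most variable window, at 63.0%, against a median of 84.6% over all windows.

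Libraries stand apart in ways that bear on every result below. Summed counts were 55799329 to 59062738 in SF-3-030+HDM, 49531210 to 58424144 in HDM and 38667118 to 59083942 in PBS libraries. Genes that differ between inbred strains, listed in earlier work on these data, separated the 3 SF-3-030+HDM libraries from the other 7 although all carry the same strain label. H2-Ea-ps, a class II gene silent in C57BL/6 mice, was at 331 to 432 CPM (counts per 1000000 counts of the library) in SF-3-030+HDM libraries, 0.107 to 0.953 CPM in HDM libraries and 0.340 to 0.860 CPM in PBS libraries, and Tpsab1, a mast cell tryptase that C57BL/6 mice lack, was at 11.9 to 15.4 CPM in SF-3-030+HDM libraries, 0.0685 to 0.281 CPM in HDM libraries and at most 0.153 CPM in PBS libraries. Trim12a ran the other way, at 0.199 to 0.363 CPM in SF-3-030+HDM libraries, 21.2 to 30.6 CPM in HDM libraries and 18.7 to 25.4 CPM in PBS libraries. The compound and this difference between libraries cannot be told apart. The Y-linked gene Ddx3y was above 10 CPM in HDM replicates 2 and 3 and PBS replicate 2, against the female label, and olfactory and vomeronasal receptor reads, a sign of background, were highest in HDM replicate 3 and PBS replicates 1 and 4. Lung markers were high throughout (Sftpc at 16563 CPM or more), but not even between groups. The 8 listed summed to 47164 to 50047 CPM in SF-3-030+HDM libraries, 50045 to 69333 CPM in HDM libraries and 74639 to 82148 CPM in PBS libraries. Hepatocytes are the main source of Serpina3k in mice. Of the 11 hepatocyte markers listed, Alb and Apoa1 were at no more than 1.59 and 0.496 CPM in any library. The list as a whole, given below, summed higher in SF-3-030+HDM libraries, nearly all of it Arg1. The part of hepatocytes in these values was not tested.

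In SF-3-030+HDM lungs the cluster was higher as a whole. The 8 genes together made up 1301, 1377 and 1794 CPM in SF-3-030+HDM libraries, 185, 358 and 502 CPM in HDM libraries, and 115, 258, 202 and 201 CPM in PBS libraries, a log2 fold change of 2.08 ± 0.40 (SE) for SF-3-030+HDM against HDM and 2.96 ± 0.37 against PBS. In whole lung, more RNA per cell and more cells that hold the RNA cannot be told apart. All 8 members had SF-3-030+HDM libraries above every HDM library, and 7 above every PBS library, the exception being Serpina3c. Of the 26235 genes fitted, 15.1% and 17% were so placed, and since the choice of members used these contrasts nothing is read from the counts. All 8 members passed the filter on low counts, Serpina3k through the SF-3-030+HDM libraries alone. The median log2 fold change of the members was 2.50 against HDM and 3.58 against PBS, beside medians of -0.03 and -0.11 over all genes fitted. With the 3 Y-linked libraries left out the member medians were 3.85 and 4.46, with Y-linked expression as a covariate 3.92 and 4.41, and without PBS replicate 2 the one against PBS was 4.44.

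**Figure D2:**
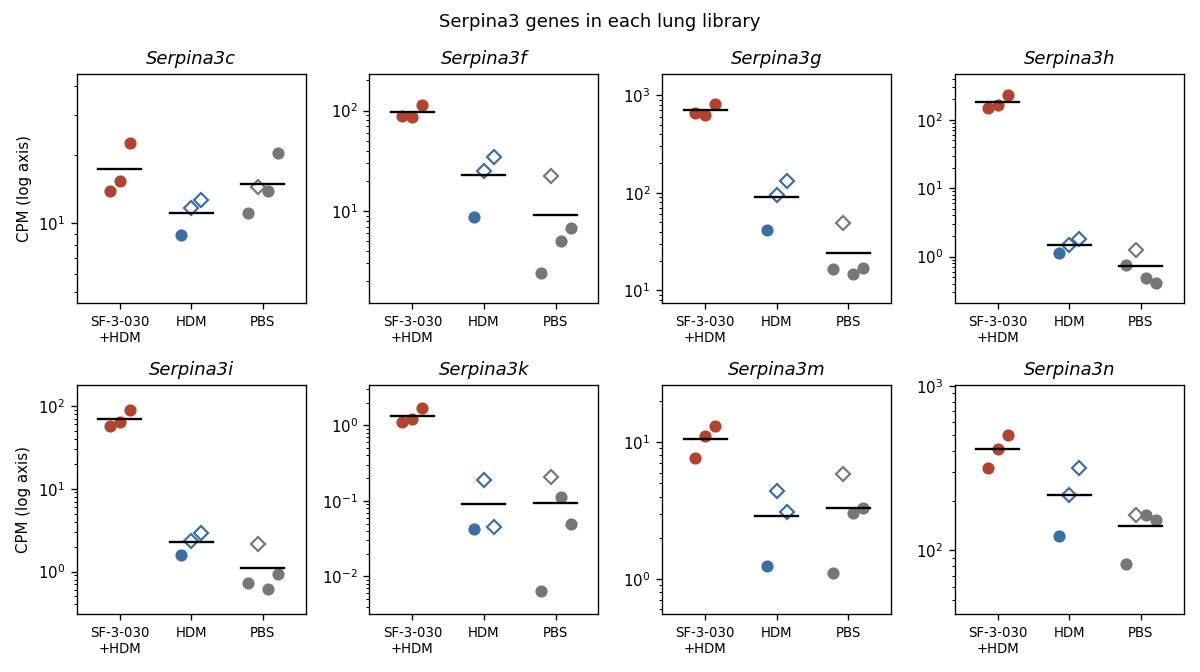
Level of each Serpina3 gene (CPM, log axis with its own range in each panel) in each library of the SF-3-030+HDM, HDM and PBS groups. Each point is 1 library, open diamonds are the 3 libraries with Ddx3y above 10 CPM, and bars are group means. SF-3-030+HDM libraries lie above the others for every gene except Serpina3c, whose SF-3-030+HDM values of 13.9 to 22.6 CPM overlap those of PBS.

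Serpina3h, the pseudogene, differed most. It had 151, 165 and 232 CPM in SF-3-030+HDM libraries, 1.13, 1.47 and 1.82 CPM in HDM libraries, and 0.754, 1.24, 0.486 and 0.416 CPM in PBS libraries. Its log2 fold change was 6.94 ± 0.44 against HDM (123-fold) and 8.01 ± 0.41 against PBS (257-fold), the 9th and 16th largest of the genes fitted. The 3 SF-3-030+HDM libraries stood together, far above the highest of the other 7, at 1.82 CPM.

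Its closest relative in sequence, Serpina3i, came next in size of difference. Serpina3i had 57.1, 63.1 and 88.9 CPM in SF-3-030+HDM libraries, 1.59, 2.33 and 2.90 CPM in HDM libraries, and 0.731, 2.16, 0.615 and 0.944 CPM in PBS libraries. The log2 fold change was 4.93 ± 0.49 against HDM and 5.99 ± 0.45 against PBS. Reads shared with Serpina3h would raise Serpina3i where Serpina3h is high, and how much they do was not tested. The ratio of the counts was not the same across groups: Serpina3h stood at 2.61 to 2.65 times Serpina3i in SF-3-030+HDM libraries, 0.626 to 0.712 times in HDM libraries and 0.440 to 1.03 times in PBS libraries.

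Serpina3g, the cathepsin inhibitor, reached the highest level of any member. It had 664, 625 and 818 CPM in SF-3-030+HDM libraries, 42.0, 95.5 and 133 CPM in HDM libraries, and 16.7, 49.2, 14.8 and 17.0 CPM in PBS libraries. The log2 fold change was 2.94 ± 0.54 against HDM and 4.87 ± 0.52 against PBS. Serpina3f, its upstream neighbour, had 88.9, 85.9 and 115 CPM in SF-3-030+HDM libraries, 8.62, 25.3 and 34.9 CPM in HDM libraries, and 2.42, 22.4, 5.04 and 6.75 CPM in PBS libraries. Its log2 fold change was 2.05 ± 0.72 against HDM and 3.40 ± 0.68 against PBS. For both genes the SF-3-030+HDM libraries were close to each other, while HDM replicate 1 stood below the rest of its group and PBS replicate 2 above the rest of its group.

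Serpina3n, the granzyme B inhibitor and acute-phase member, was abundant everywhere. It had 317, 411 and 503 CPM in SF-3-030+HDM libraries, 121, 217 and 314 CPM in HDM libraries, and 81.7, 162, 164 and 152 CPM in PBS libraries. The log2 fold change was 0.91 ± 0.39 against HDM and 1.57 ± 0.36 against PBS. The lowest SF-3-030+HDM library, at 317 CPM, was just above the highest HDM library, at 314 CPM.

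The remaining members were scarce. Serpina3m had 7.64, 11.0 and 13.1 CPM in SF-3-030+HDM libraries, 1.25, 4.38 and 3.06 CPM in HDM libraries, and 1.11, 5.83, 3.04 and 3.31 CPM in PBS libraries, with a log2 fold change of 1.83 ± 0.58 against HDM and 1.67 ± 0.53 against PBS. Serpina3k had 1.10 to 1.70 CPM in SF-3-030+HDM libraries, 0.0419 to 0.187 CPM in HDM libraries and 0.00639 to 0.204 CPM in PBS libraries. Its log2 fold change of 3.80 ± 1.01 against HDM rests on 15.3 counts in the 3 HDM libraries together, beside 231 counts in SF-3-030+HDM. Serpina3c had 13.9, 15.4 and 22.6 CPM in SF-3-030+HDM libraries, 8.90, 11.6 and 12.6 CPM in HDM libraries, and 11.1, 14.5, 13.9 and 20.3 CPM in PBS libraries. The log2 fold change of Serpina3c was 0.64 ± 0.30 against HDM and 0.24 ± 0.28 against PBS, and the last one turned to -0.05 without SF-3-030+HDM replicate 3. The markers of adipocytes, cells that express Serpina3c, summed to 22.9 to 41.3 CPM in SF-3-030+HDM libraries, 62.0 to 116 CPM in HDM libraries and 66.5 to 147 CPM in PBS libraries. Lep was at 0 in every SF-3-030+HDM library. The part of adipocytes in the Serpina3c values was not tested.

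**Figure D3:**
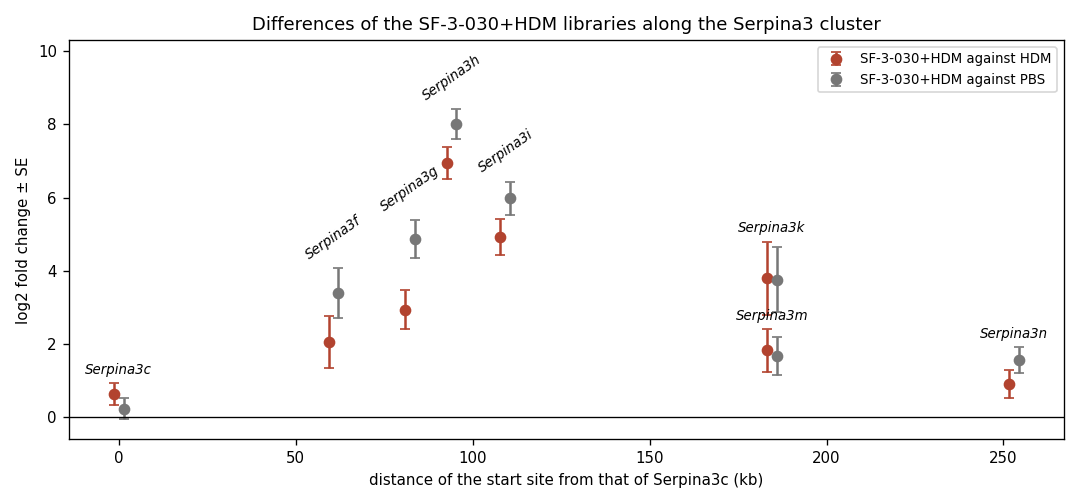
Log2 fold change ± SE of the SF-3-030+HDM libraries against HDM and against PBS (vertical axis) by the distance of each gene's start site from that of Serpina3c in kb (horizontal axis). The values are highest at Serpina3h (6.94 and 8.01) and lowest at the outermost members, Serpina3c (0.64 and 0.24) and Serpina3n (0.91 and 1.57). Serpina3m is drawn at its outermost annotated start, which is that of Serpina3k, although the gene extends to chr12:104394257.

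Among the 8 members, the plot by distance shows the largest differences at Serpina3h and its neighbour Serpina3i. The smallest are at the outermost members, Serpina3c and Serpina3n. Against PBS, Serpina3m (1.67 ± 0.53) was close to Serpina3n (1.57 ± 0.36). The scarce Serpina3k, between Serpina3i and Serpina3n, had a larger log2 fold change against HDM (3.80) than Serpina3f or Serpina3g. The decline from Serpina3h was thus not even. Serpina3e-ps, a pseudogene between Serpina3c and Serpina3f and no member, had 7.08, 8.42 and 10.5 CPM in SF-3-030+HDM libraries, 0.173 to 0.502 CPM in HDM libraries and 0.0819 to 0.194 CPM in PBS libraries. Its mean was 23.6 times that of HDM, a larger fold of means than for Serpina3f (4.21) or Serpina3g (7.79), which lie nearer Serpina3h. Serpina3l-ps, between Serpina3k and Serpina3n, had 0.285 to 0.487 CPM in SF-3-030+HDM libraries and at most 0.0404 CPM in HDM and PBS libraries. Its mean was 25.9 times that of HDM, where no library had more than 2 counts. Serpina3j had at most 0.101 CPM in any library. Serpina3a and Serpina3b, which lie beyond Serpina3c, had at most 0.156 and 0.0810 CPM.

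The make-up of the Serpina3 signal differed between groups. Serpina3g made up 45.1% to 50.8% of the summed CPM of the 14 Serpina3 genes in SF-3-030+HDM libraries, 22.7% to 26.6% in HDM libraries and 7.32% to 19.1% in PBS libraries. Serpina3n made up 24.2% to 29.6% in SF-3-030+HDM libraries, 60.6% to 65.5% in HDM libraries and 62.9% to 81.0% in PBS libraries. Serpina3h made up 11.6% to 12.8% in SF-3-030+HDM libraries, 0.361% to 0.614% in HDM libraries and 0.207% to 0.657% in PBS libraries. So Serpina3g was the leading member in SF-3-030+HDM lungs and Serpina3n in HDM and PBS lungs, and the groups did not overlap for Serpina3g.

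**Figure D4:**
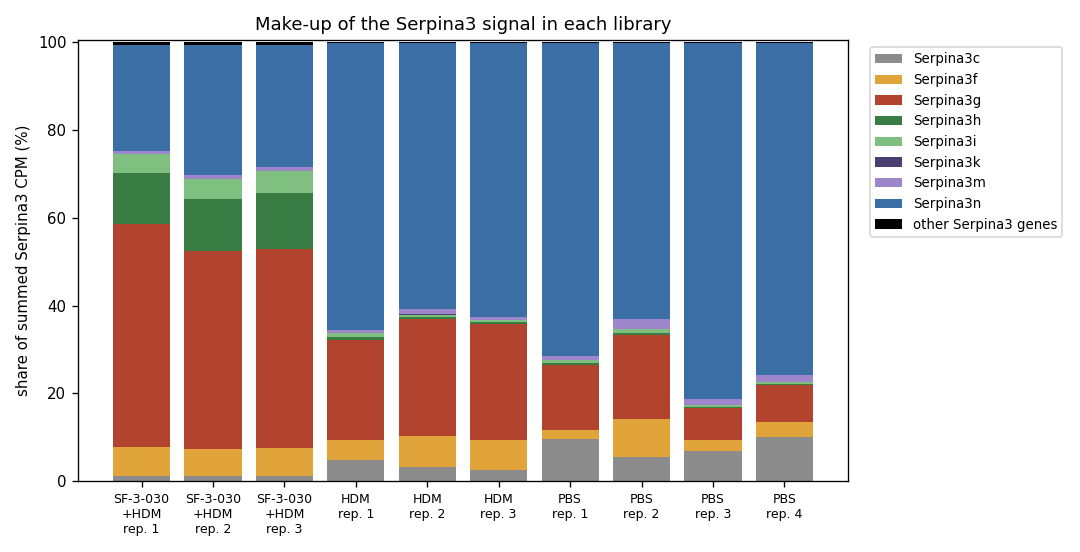
Share of each Serpina3 gene in the summed CPM of the 14 Serpina3 genes (percent, stacked to 100) in each of the 10 libraries, SF-3-030+HDM at the left, then HDM, then PBS. Serpina3n (blue) is the largest part in HDM and PBS libraries, at 60.6% or more, and Serpina3g (red) the largest in SF-3-030+HDM libraries, at 45.1% or more.

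Per length, as CPM per kb of annotated exons, the order in SF-3-030+HDM lungs was Serpina3g at 334 ± 48.4 (SD, n = 3), Serpina3n at 199 ± 45.2, Serpina3h at 127 ± 30.1, Serpina3f at 42.1 ± 6.91, Serpina3i at 31.3 ± 7.59, Serpina3c at 7.80 ± 2.10, Serpina3m at 6.16 ± 1.60 and Serpina3k at 0.649 ± 0.155 CPM per kb. The libraries of Serpina3n and Serpina3h overlapped, as did those of Serpina3f and Serpina3i and those of Serpina3c and Serpina3m. In HDM lungs Serpina3n led at 105 ± 46.7 CPM per kb, followed by Serpina3g at 42.8 ± 21.7, Serpina3f at 10.0 ± 5.80 and Serpina3c at 4.99 ± 0.872 CPM per kb. The HDM libraries of Serpina3n and Serpina3g overlapped, as did those of Serpina3f and Serpina3c. In PBS lungs the same 2 genes led, Serpina3n at 67.8 ± 19.0 and Serpina3g at 11.6 ± 7.86 CPM per kb (SD, n = 4), without overlap between them. Serpina3h, behind only Serpina3g and Serpina3n in SF-3-030+HDM lungs, came after 5 members in the other groups, at 1.03 ± 0.238 CPM per kb in HDM lungs and 0.506 ± 0.262 in PBS lungs. It overlapped with Serpina3i and Serpina3m in both.

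Across the 10 libraries, log2(CPM + 0.5) of the members rose and fell together to different degrees, which is a description of libraries that share the group differences above. Pearson's r was highest for Serpina3h and Serpina3i, at 0.995, followed by Serpina3h and Serpina3k at 0.977, Serpina3i and Serpina3k at 0.974, Serpina3f and Serpina3g at 0.967, and Serpina3g and Serpina3i at 0.962. It was lowest for Serpina3c and Serpina3g, at 0.326. Among 14754 other genes with at least 1 CPM on average, those most like Serpina3h were Serpina3e-ps (r = 0.995), Tpsab1 (0.993), Gbp2b (0.993), H2-Q2 (0.991) and Tpm3-rs7 (0.989), of which Tpsab1 and Gbp2b are on the list of strain-differing genes. Those most like Serpina3g were Rfc5 (0.988), the eosinophil chemokine gene Ccl11 (0.987), Fcer2a (0.987), the B cell chemokine gene Cxcl13 (0.983) and Cd209e (0.980). Those most like Serpina3n were Manf (0.985), Psat1 (0.975), Tspan14 (0.963), the metalloprotease inhibitor gene Timp1 (0.958) and Nutf2-ps2 (0.951).

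The comparison of HDM with PBS was not used in choosing the members, and it sets mice given allergen against controls. Since DMSO is named for HDM and not for PBS, allergen and solvent cannot be told apart in it. No member passed the test: by edgeR's quasi-likelihood test with Benjamini-Hochberg adjustment over 26235 genes, 0 of 8 were called, beside 2.32% of all genes called higher (608 genes) and 0.294% called lower (77 genes). At an unadjusted p below 0.05 there were 3 members (Serpina3g, Serpina3h and Serpina3i), all higher in HDM, beside 6.65% of all genes higher. DESeq2 called 2 higher (Serpina3g, adjusted p = 0.0237, and Serpina3h, adjusted p = 0.0411), beside 5.32% of the 19916 genes it gave an adjusted p. HDM and PBS libraries overlapped for all 8 members, while 5.28% of genes had every HDM library above every PBS library and 5.97% every one below. The median log2 fold change was 0.86 over the members, 5 of them positive, beside -0.09 over all genes.

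Serpina3g came nearest to the threshold. Its 42.0 to 133 CPM in HDM libraries and 14.8 to 49.2 CPM in PBS libraries gave a log2 fold change of 1.92 ± 0.47, with a 95% interval of 0.90 to 2.95 and an adjusted p of 0.0559 (edgeR). The overlap came from HDM replicate 1, at 42.0 CPM, and PBS replicate 2, at 49.2 CPM. Without PBS replicate 2, edgeR called 4 members higher in HDM: Serpina3g (log2 fold change 2.56, adjusted p = 0.00335), Serpina3i (1.66, adjusted p = 0.0158), Serpina3h (1.51, adjusted p = 0.021) and Serpina3f (2.32, adjusted p = 0.0342), beside 2.57% of all genes called higher in that fit. Without HDM replicate 1 it called Serpina3g alone (2.27, adjusted p = 0.0283), beside 1.85% of genes. Over 20 alternatives the adjusted p of Serpina3g ran from 0.00335 to 0.434, below 0.05 in 6.

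The other members had smaller or less certain differences, with edgeR's adjusted p beside each. Serpina3h had a log2 fold change of 1.06 ± 0.36 (adjusted p = 0.204), Serpina3i of 1.06 ± 0.42 (adjusted p = 0.321), Serpina3f of 1.34 ± 0.65 (adjusted p = 0.506) and Serpina3n of 0.67 ± 0.36 (adjusted p = 0.596). Serpina3c, at -0.39 ± 0.28 (adjusted p = 0.821), and Serpina3m, at -0.16 ± 0.53 (adjusted p = 0.988), were on the other side of 0, and Serpina3k, at -0.03 ± 0.92 (adjusted p = 0.999), has an interval from -2.05 to 1.99 that covers 4-fold changes either way. Serpina3k would not have passed the filter on the HDM and PBS libraries alone. The summed counts of the 8 members gave 0.88 ± 0.36 (adjusted p = 0.354).

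**Figure D5:**
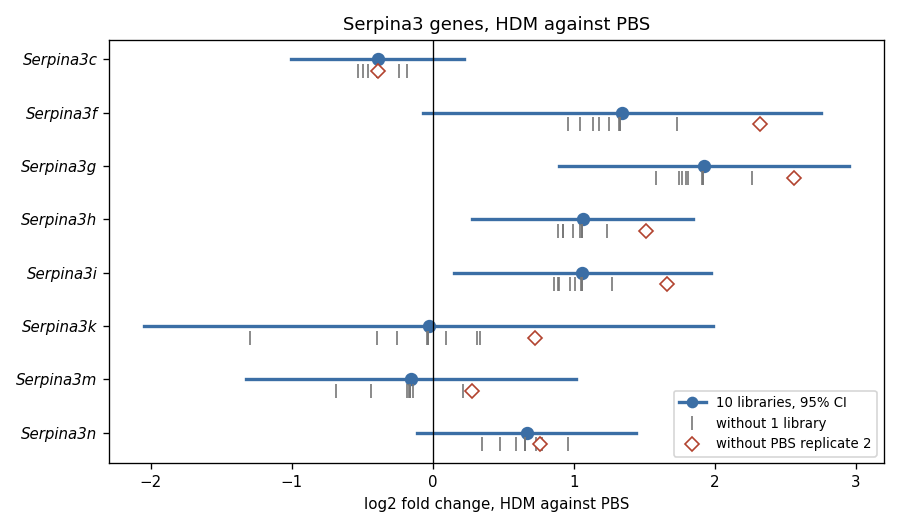
Log2 fold change of each Serpina3 gene for HDM against PBS (horizontal axis). Dots and lines are the fit of all 10 libraries with its 95% interval, grey ticks are fits without 1 library each, and open diamonds are the fit without PBS replicate 2, which lies at 2.56 for Serpina3g and 2.32 for Serpina3f.

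Libraries with Y-linked expression sat high for most members. HDM replicate 1, the only HDM library without Y-linked expression, was the lowest HDM library for 8 of 8 members, as it was for 31.9% of all genes tested, and PBS replicate 2, the only PBS library with Y-linked expression, was the highest PBS library for 6 of 8 (all but Serpina3c and Serpina3n), as it was for 18.1% of genes. Within the libraries with Y-linked expression (2 HDM and 1 PBS), Serpina3g differed by 1.19 on the log2(CPM + 0.5) scale, and within the others (1 HDM and 3 PBS) by 1.35. Serpina3f differed by 0.40 and 0.90, Serpina3h by 0.29 and 0.65, Serpina3i by 0.22 and 0.74, and Serpina3n by 0.68 and -0.07. Serpina3c (-0.25 and -0.69), Serpina3m (-0.60 and -0.67) and Serpina3k (-0.20 and -0.03) were lower in HDM in both sets of libraries. With Y-linked expression as a covariate, an alternative chosen after seeing the data, edgeR called Serpina3g (log2 fold change 1.31, adjusted p = 0.00813) and no other member, beside 1.45% of all genes called higher. The part of Y-linked expression in these differences was not tested beyond that.

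As a share of the Serpina3 signal, Serpina3g took 25.3% ± 2.20 in HDM lungs (SD, n = 3) and 12.4% ± 5.50 in PBS lungs (SD, n = 4), with no overlap between the libraries. The exact permutation test of this difference gave p = 0.0571, two-sided, the smallest that 3 libraries against 4 can give, and 0.229 after Benjamini-Hochberg adjustment over the 8 shares tested. Serpina3c took 3.52% ± 1.18 and 8.07% ± 2.17 in the same groups, also without overlap and with the same p. Serpina3n took 62.8% ± 2.48 and 72.7% ± 7.66 (exact permutation p = 0.114).

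Some other genes of the wider Serpina family, though not all, were also high in SF-3-030+HDM libraries. Of 17 other Serpina genes listed, 10 were tested. Their median log2 fold change was 1.46 for SF-3-030+HDM against HDM, with 7 of the 10 positive, and 3.80 against PBS, with 8 positive. The Serpina3 members had medians of 2.50 and 3.58. The filter on low counts used all 10 libraries. Serpina1a, Serpina1c, Serpina1d and Serpina1e passed it through the SF-3-030+HDM libraries alone. In HDM and PBS libraries they were at no more than 0.298, 0.223, 0.153 and 0.235 CPM, in that order. These medians depend in part on that filter, so nothing is read from their order. Serpina1b, a gene of the alpha-1-antitrypsin family that inhibits neutrophil elastase, had 17.0, 10.9 and 17.4 CPM in SF-3-030+HDM libraries, 0.123 to 1.24 CPM in HDM libraries and at most 0.533 CPM in PBS libraries. Its relatives Serpina1a, Serpina1c and Serpina1d were likewise higher in every SF-3-030+HDM library than in any other, at no more than 3.45 CPM, while Serpina9, a serpin of germinal centre B cells, was lower, at 0.474 to 0.686 CPM in SF-3-030+HDM libraries, 4.69 to 8.93 CPM in HDM libraries and 2.89 to 7.03 CPM in PBS libraries. The Serpina1 genes and Serpina9 are named here with their values already known, and how reads were divided among the Serpina1 copies was not tested. For HDM against PBS, edgeR called 1 of the 10 higher and 0 lower, beside 2.32% and 0.294% of all genes. It was Serpina10, the inhibitor of coagulation factor Xa that works with protein Z, with 4.77 to 5.23 CPM in HDM libraries and 0.360 to 1.20 CPM in PBS libraries (log2 fold change 2.94 ± 0.41, adjusted p = 0.00353), and it missed the threshold without the 3 high-background libraries (2.77, adjusted p = 0.0573). Of 17 other serpin inhibitors tested, none was called. The nearest were Serpinb1a, an inhibitor of neutrophil proteases (0.82 ± 0.23, adjusted p = 0.105), and Serpinb2, the plasminogen activator inhibitor of macrophages (2.56 ± 0.78, adjusted p = 0.141).

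Of 19 proteases that serpins of this group or their relatives are known to inhibit, or that mast cells, neutrophils and lymphocytes carry, 4 were called higher in HDM than in PBS and 0 lower (edgeR), beside 2.32% and 0.294% of all genes. Ctss, the antigen-processing cathepsin S, had a log2 fold change of 2.25 ± 0.22 (adjusted p = 0.000566) and Ctsb, cathepsin B, one of 1.07 ± 0.23 (adjusted p = 0.0315). The mast cell proteases Mcpt1 and Mcpt2 had 5.30 ± 0.71 (adjusted p = 0.00253) and 4.75 ± 0.59 (adjusted p = 0.00179), at 1.12 to 9.56 CPM and 1.27 to 5.49 CPM in HDM libraries against at most 0.200 CPM and 0.160 CPM in PBS libraries. With the 3 Y-linked or the 3 high-background libraries left out, fits that called fewer genes in all, Ctsb was not called and the other 3 were. The median over the 19 was -0.27. In SF-3-030+HDM libraries Mcpt1 stood at 37.3 to 48.5 CPM and Ctsb at 1458 to 2189 CPM, beside 1123 to 1460 CPM of Ctsb in HDM libraries.

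Genes often measured together with Serpina3n were read as lists. The calls below stand beside 2.32% of all genes called higher in HDM than in PBS and 0.294% called lower. Fits that left out libraries with Y-linked expression or high background called fewer genes in all. Of 16 acute-phase genes tested, 3 were called higher in HDM than in PBS and 0 lower, namely the fibrinogen gene Fga (2.16 ± 0.45, adjusted p = 0.0261, edgeR), the siderophore-binding Lcn2 (1.41 ± 0.33, adjusted p = 0.0456) and the complement gene C3 (1.05 ± 0.25, adjusted p = 0.0463). The median over the 16 was 1.04, with 12 positive, above the 0.86 of the Serpina3 members and the -0.09 of all genes. None of them was called with the 3 Y-linked libraries left out, and Fga alone with the 3 high-background libraries left out. Of 16 genes of the STAT3 and IL-6 axis none was called, the nearest being the kinase gene Pim1 (0.73 ± 0.19, adjusted p = 0.0792) and Cebpd (-0.56 ± 0.19, adjusted p = 0.191), and their median was -0.01. Of 13 glucocorticoid targets 1 was called, again Lcn2, with a median of -0.06. Against HDM, SF-3-030+HDM had medians of -0.20 over the acute-phase genes, 0.16 over the STAT3 and IL-6 axis and -0.43 over the glucocorticoid targets, beside 1.46 over the other Serpina genes and 2.50 over the Serpina3 members. Among the Serpina genes, Serpina1a, Serpina1c, Serpina1d, Serpina1e and Serpina3k passed the filter on low counts through the SF-3-030+HDM libraries alone. The medians of 1.46 and 2.50 depend in part on that filter.

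Markers of the cells that could carry these RNAs were summed per library. For HDM against PBS, their calls stand beside 2.32% of all genes called higher and 0.294% called lower. Fewer genes in all were called in the fits below that leave out libraries. Lymphocyte markers summed to 1597 to 2350 CPM in SF-3-030+HDM libraries, 1506 to 2449 CPM in HDM libraries and 148 to 734 CPM in PBS libraries, and 5 of 10 were called higher in HDM than in PBS. Macrophage markers summed to 5887 to 10042 CPM in SF-3-030+HDM libraries, 10421 to 13050 CPM in HDM libraries and 7500 to 10405 CPM in PBS libraries, with 3 of 10 called higher in HDM; leaving out the 3 Y-linked libraries, 2 lymphocyte and 0 macrophage markers were called, and leaving out the 3 high-background libraries 1 and 1. Neutrophil markers summed to 375 to 398 CPM in SF-3-030+HDM libraries, 137 to 226 CPM in HDM libraries and 216 to 377 CPM in PBS libraries, with S100a8 called lower in HDM than in PBS (-1.53 ± 0.32, adjusted p = 0.027, edgeR), a call lost with the 3 Y-linked or the 3 high-background libraries left out. The hepatocyte list summed to 173 to 239 CPM in SF-3-030+HDM libraries, 29.4 to 109 CPM in HDM libraries and 12.1 to 21.4 CPM in PBS libraries, nearly all of it Arg1 in SF-3-030+HDM libraries (165 to 231 CPM), a gene that macrophages also express, with Apoc3, Cps1 and Ttr at 0 in every SF-3-030+HDM library. Apoc3 was also at 0 in every HDM library. Arg1 was the one call among 7 hepatocyte markers tested for HDM against PBS (3.62, adjusted p = 0.00912, edgeR), and was lost with the 3 Y-linked libraries left out, while none of 8 adipocyte and none of 8 lung markers was called. The part of these cells in the Serpina3 values was not tested.

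Start-site windows were available from RefSeq (GRCm38.p6) for 5 members (Serpina3c, Serpina3f, Serpina3g, Serpina3i and Serpina3n), each from 250 bases before to 50 after the annotated start. They were searched on both strands for the STAT motif TTCNNNGAA, the glucocorticoid receptor motif (GNACA and TGTNC, 3 bases apart), the C/EBP motif TTGCNNAA and the AP-1 motif TGANTCA, none of which overlapped another in these windows. The stretch that holds the STAT and glucocorticoid receptor matches is shown because the windows differ there. Serpina3c and Serpina3n have the glucocorticoid receptor match, and Serpina3f, Serpina3g and Serpina3i the STAT match. Serpina3h, Serpina3k and Serpina3m had no window, and any bearing of the motifs on the levels was not tested. Capitals mark motif matches, and sequences run 5′ to 3′ on the strand of the gene.
Serpina3f, chr12:104214423-104214471: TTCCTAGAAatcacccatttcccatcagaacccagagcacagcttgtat
Serpina3g, chr12:104236114-104236171: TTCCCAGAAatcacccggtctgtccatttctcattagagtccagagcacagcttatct
Serpina3i, chr12:104263020-104263077: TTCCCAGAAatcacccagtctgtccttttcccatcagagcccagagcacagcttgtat
Serpina3c, chr12:104153935-104153992: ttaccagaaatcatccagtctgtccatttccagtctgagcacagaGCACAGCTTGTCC
Serpina3n, chr12:104406585-104406642: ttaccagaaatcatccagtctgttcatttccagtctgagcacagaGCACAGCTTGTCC

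The STAT motif was in 3 of 5 windows, 121 bases before the annotated start in Serpina3f, 33 in Serpina3g and 102 in Serpina3i, and in 8.30% of 32851 RefSeq windows of the same length. The glucocorticoid receptor motif was in 2 of 5, 75 bases before the start in Serpina3c and 78 in Serpina3n, and in 0.475% of all windows. The C/EBP motif was in Serpina3f alone (10.8% of all windows), and the AP-1 motif in none of the 5 (7.81% of all windows). The start used for Serpina3g lies 98 bases before the one in GENCODE M21, and Serpina3f has a second RefSeq start, from which its STAT motif is 210 bases away. Over this stretch Serpina3c and Serpina3n were 98.3% identical, Serpina3f and Serpina3i 93.9%, and Serpina3g and Serpina3n 77.6%. A motif match describes letters only. These genes share ancestry, so their matches are not independent of each other.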

How the data were processed

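Whole-lung mRNA libraries were sequenced on an Illumina HiSeq, per the labels' protocols. The submitters' processing notes name GRCm38, STAR 2.5.2b and Trimmomatic 0.36; for counting tool, annotation and strand, nothing is given in the sources used here. The deposited table gives an expected count for each gene in each library (raw columns, per the file headers) and the authors' log2 values, which were not used. Blank cells (34.4%) were read as 0. CPM (counts per 1000000) divides by the summed expected count of a library.

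Expected counts were rounded and fitted with edgeR 4.0.16 in R 4.3.3 (TMM, filterByExpr, 10 libraries, a term per group, quasi-likelihood, two-sided, adjusted p below 0.05 over 26235 genes); the script was tested on simulated data. Reads carry no molecular identifiers, and the SEs and p-values of the fit include the spread between libraries. Sequences came from GENCODE M21 and RefSeq and were aligned with MAFFT 7.526. The members, gene lists and tests were chosen with earlier results of these data known. Genes named are the members, up to 4 called genes per list with the smallest p (or the nearest 2), and the 5 most correlated with Serpina3h, Serpina3n and Serpina3g. Strain-differing genes, and some marker values, were added to these. Alternatives were DESeq2 1.42.0, scaling by RLE or upper quartile, other filters, fits of 2 groups, a replicate block, leaving out libraries, a covariate, summing all Serpina3 genes, and transcript length.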

Additional observations from a re-analysis of the deposited data

Results flagged for a closer look

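Serpina3g stood at 49.2 CPM in PBS replicate 2, far above the other 3 PBS libraries, which ran from 14.8 to 17.0 CPM. Serpina3n stood at 81.7 CPM in PBS replicate 1, far below the other 3 PBS libraries, which ran from 152 to 164 CPM. The gap to the nearest library, over the range of the group, was 0.937 for Serpina3g and 0.855 for Serpina3n, past Dixon's 95% critical value for 4 samples. All 8 members were looked at in PBS, and chance gives such a gap in about 1 in 20 groups. PBS replicate 2 has Y-linked expression, and PBS replicate 1 had the smallest total (38667118 counts) and the most olfactory and vomeronasal receptor reads (453 CPM). The part of these in the 2 values was not tested.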

How the results depend on the processing

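In the comparisons of SF-3-030+HDM with HDM and PBS, 319 of 320 member values kept a positive sign under the alternatives; Serpina3c against PBS without SF-3-030+HDM replicate 3 was the exception. For HDM against PBS, 685 genes were called. The count was 1435 with DESeq2, 249 with a replicate block, 250 without the 3 libraries with Y-linked expression, 243 without the 3 high-background libraries, 424 with the covariate, and 303 to 913 leaving out 1 library. It moved by over 1.5 times without HDM replicate 2 (303), HDM replicate 3 (449), PBS replicate 3 (426) or PBS replicate 4 (393). Members called, 0 of 8, became 2 with DESeq2, 1 with no filter, 1 with a filter of 1 CPM in 3 libraries, 1 with the covariate, and 0 to 4 leaving out 1 library (4 without PBS replicate 2, 1 without HDM replicate 1). The replicate numbers did not pair the libraries: over 9 pairs of libraries that share a number, deviations correlated at -0.577 to 0.268, and the block called 0 members. The member median of 2.50 against HDM became 3.85 without the libraries with Y-linked expression, 3.92 with the covariate and 2.14 to 2.86 leaving out 1 library; that of 3.58 against PBS became 4.46, 4.41 and 3.21 to 4.44, and 2.88 without the high-background libraries. For HDM against PBS, Serpina3k changed sign with no filter (0.0044) and ran from -1.30 to 0.72 leaving out 1 library, with no value when HDM and PBS alone were fitted; Serpina3m ran from -0.69 to 0.28, and Serpina3n was at -0.16 without the libraries with Y-linked expression. The cause was not tested. With upper-quartile scaling the median of all genes was -0.19, -0.31 and -0.15 in the 3 comparisons. The order of levels per kb was the same with the longest transcript. Depth limits Serpina3k most.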
